A study of Glycine max with 16 samples.

Results

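The cytochrome P450 genes of soybean (Glycine max) described here are the 21 genes that the annotation of the Affymetrix soybean array names with a P450 symbol, CYP followed by a family number and a letter, through probe sets that are paired with 1 gene each. CYP74A1, an allene oxide synthase that does not work as a monooxygenase, was left out. The 21 genes are represented by 39 of the 37593 soybean probe sets of the array, and 9 of them have several probe sets. Such a gene was represented by the one with the highest mean signal on the 16 arrays. The symbol rule itself used no measured value, but the genes were chosen with earlier results of these data known. On the whole array 6029 genes are named by a single symbol, and P450 genes without a CYP symbol are not covered.

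Transcripts were measured in whole seeds, seed coat and embryo together, of the cultivar MG/BR 46 (Conquista), which the study used as its cultivar susceptible to chlorophyll retention. All plants passed their vegetative phase in a polytunnel without stress. At stage R5.5 some of the pots moved into a greenhouse where the daytime averaged 39.5 °C and plants were watered only once they wilted (stressed), and the others stayed where they were (non-stressed). Seeds were harvested at R6 (full, green seed), R7 (beginning of maturity) and R8 (full maturity) and were selected by colour after harvest. The paper set its R7 arrays aside to avoid ambiguous results. It considered the R7 samples a mixture of seeds at slightly different stages of maturation. R7 values are given here with that limit, and the part of uneven maturity in the R7 stress differences was not tested. Heat and drought were applied together and cannot be told apart, and neither can the stress and the move to another house. The labels number biological replicates, and the methods state that 6 pots were joined in pairs to form 3 replicates. Analysed here are 16 arrays, 3 for each condition except non-stressed R7 and non-stressed R8 seeds, with 2 arrays each.

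P450 enzymes are haem proteins that insert an oxygen atom from O2 into a small molecule. In many of them, though not all, the electrons are handed over by a reductase in the endoplasmic reticulum. In legumes they build isoflavonoids and the pterocarpan phytoalexins derived from them, oxidise the triterpene skeletons of saponins that seeds store, make lignin precursors, hydroxylate carotenoids and brassinosteroids, and detoxify foreign compounds. Many are transcribed at low levels until a wound, a pathogen or a stage of development calls for their product.

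All values below are log2 signals, in which 1 unit is a 2-fold difference. Probe sets of other organisms on the same arrays gave the level of background, with a 95th percentile of 0.91, and a group mean at or below it is a bound and no level. A probe set was tested if its mean exceeded 3 in at least 1 of the 6 conditions. That held for 14 of the 21 genes (66.7%) and for 51.1% of all soybean probe sets. A gene is called higher or lower when its Benjamini-Hochberg adjusted p from limma, over all 19194 probe sets tested, was 0.05 or less and its log2 difference at least 1 in size. The standard error (SE) is that of the fit. The same-stage stress comparisons and the stage comparisons share arrays, as do the differences between stress responses, so their values are given side by side and none is independent of the others.

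As a check of the whole-seed label, 7 of 9 storage and inhibitor symbols were on the array, with a log2 summed signal of 15.15 to 15.26 over the R6 arrays, 14.45 to 14.58 without and 12.83 to 13.30 with stress at R7, and 11.38 to 12.44 without and 13.95 to 14.02 with stress at R8. The 4 seed coat markers differed with stress at R6, from a summed 9.24 to 9.84 without stress to 5.83 to 6.66 with it. SCB1, HPS and LAR1 were lower and Ep, a seed coat peroxidase, was higher, and in R8 seeds the list read 2.68 to 2.98. In RNA of whole seeds, fewer cells of a type and less RNA per cell cannot be told apart, and the part of these markers in the P450 differences was not tested. Vegetative storage protein genes, 2 of 2 on the array with 1 tested, had summed signals of 1.78 to 1.84 in non-stressed R6 seeds and 4.96 to 5.10 in stressed R8 seeds, and 0 of 6 root nodule symbols were matched. Among the arrays, the stressed R6 replicate 3 had the lowest mean correlation with its group (0.958). Without it the stress differences at R6 were 4.83 for CYP82A2, 2.84 for CYP83E8, 1.56 for CYP93A1 and -1.28 for CYP98A2. All were still called, with CYP97C10 added, and calls over all probe sets at R6 rose from 2856 to 3659. The non-stressed R7 arrays had 3′ minus 5′ signals of 4.26 and 3.18 for 1 pair of actin control probe sets, against 1.56 to 2.69 on the others. For the other actin pair the same arrays read 4.96 and 5.03, below the stressed R7 arrays at 5.41 to 5.67. That pair read 6.14 to 7.32 on the R6 arrays and 4.38 to 5.08 on the R8 arrays. The GAPDH 3′ minus middle signal was 0.45 to 0.80 at R6 and 1.66 to 1.81 at R8. At R7 it was 1.96 and 1.37 without stress and 1.12 to 1.21 with it. These measures thus differed between stages and, at R7, between the environments. Their part in the R7 values, the R7 stress differences and the stage changes was not tested. Over all probe sets, 1270 were called higher and 2293 lower at R7, a split that became 1651 and 1894 when array medians were centred.

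The P450 genes called under stress were not the same at every stage, CYP93A1 being the only one called at all 3. At R6, transcripts of CYP82A2, CYP83E8 and CYP93A1 were higher in stressed seeds and those of CYP98A2 lower, 3 higher and 1 lower of the 14 tested, where 7.54% of all probe sets were called higher and 7.34% lower. The median log2 difference of the 14 genes was 0.45, against 0.03 over all probe sets tested. At R7 none was called higher and 2, CYP71A9 and CYP93A1, were lower, beside 6.62% and 11.9% of all probe sets, and the median was -0.65 against -0.05. At an unadjusted p under 0.05, 13, 9 and 9 of the 14 differed at R6, R7 and R8 in turn. The share of all probe sets at that limit was not counted, so nothing is read from these numbers. At R8 CYP72A67, CYP82A2 and CYP83E8 were higher and CYP71A9, CYP93A1 and CYP93A3 lower, 3 in each direction, beside 6.01% and 2.5% of all probe sets, with a median of 0.04 against -0.03. Without the stressed R7 replicate 3, the count at R7 rose from 2 to 4, all lower, with CYP71D10 and CYP97B2 added. Calls over all probe sets rose as well, from 3563 to 4417, with lower calls going from 2293 to 2861. Centring the array medians left the P450 count at 2.

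**Figure D1:**
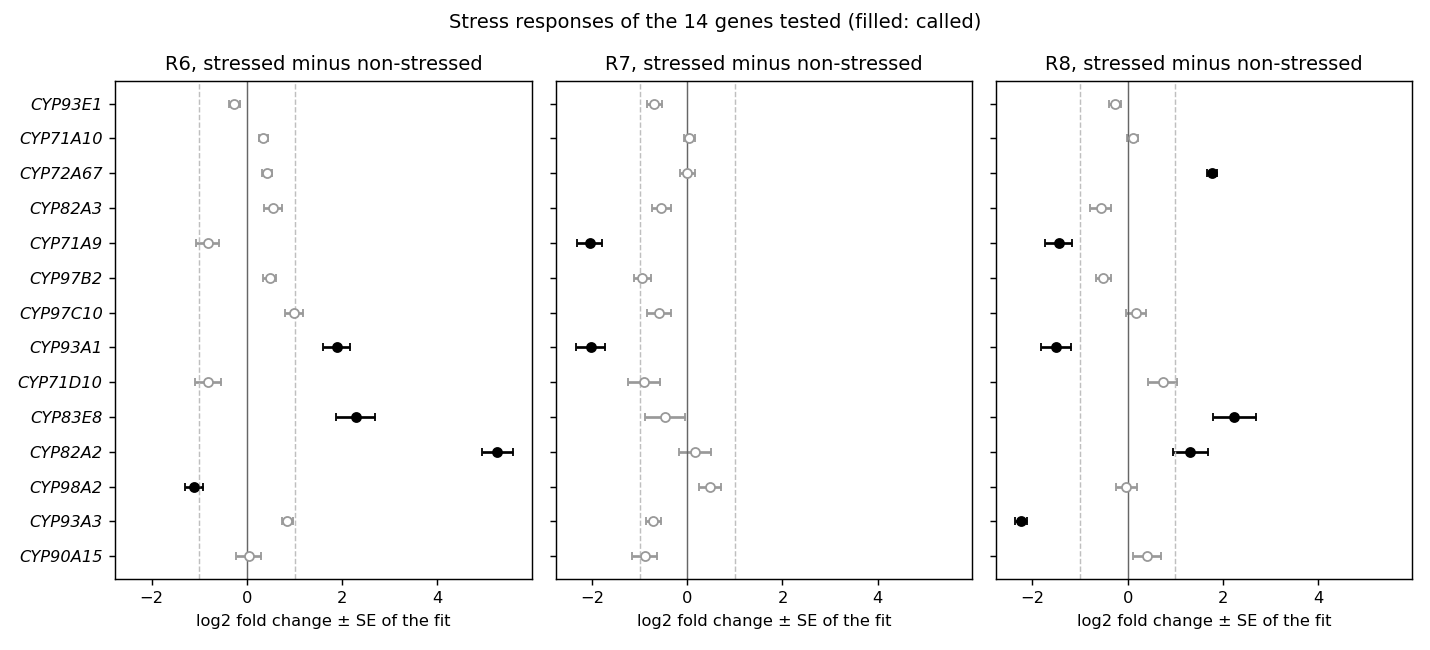
Stressed minus non-stressed log2 signal (horizontal axis, in log2 units) for the 14 tested P450 genes, with a panel for each stage, as the fitted difference with its SE. Filled points were called and open points were not, and dashed lines mark a 2-fold difference. CYP82A2 at R6, at 5.26, lies farthest to the right in these panels, and CYP93A3 at R8, at -2.24, farthest to the left.

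CYP93A1 encodes the 6a-hydroxylase of dihydroxypterocarpan, an enzyme on the route to the glyceollins, the phytoalexins of soybean. It was the one member whose call changed direction with stage. At R6 its log2 signal was 1.33, 1.97 and 1.11 on the non-stressed arrays and 3.06, 2.99 and 4.02 on the stressed arrays. All stressed arrays lay above all non-stressed arrays, and the gene was higher under stress by 1.89 ± 0.28 (SE, 3.70-fold, adjusted p = 3.52e-04).

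From R7 on the order was the opposite. The non-stressed arrays read 6.41 and 6.01 at R7 against 4.08, 4.49 and 3.98 under stress, a difference of -2.03 ± 0.30 (SE, adjusted p = 2.25e-04). At R8 the non-stressed arrays read 5.71 and 5.39 and the stressed arrays 4.02, 4.01 and 4.10, a difference of -1.50 ± 0.32 (SE, adjusted p = 0.0049). Stressed arrays were thus the lower ones at both later stages, again with no overlap. The response at R8 was below that at R6 by a log2 difference of -3.39 ± 0.42 (SE, adjusted p = 1.93e-04), and that at R7 by -3.92 ± 0.41 (SE, adjusted p = 6.56e-06). Seen along maturation, non-stressed seeds gained 4.74 ± 0.30 log2 units of CYP93A1 from R6 to R7 (adjusted p = 6.81e-09), while stressed seeds, which started higher, differed by 0.82 ± 0.27 and were not called. That missing call rested on the stressed R6 replicate 3, without which the gene was called higher in stressed seeds too, by 1.16 ± 0.23 at R7 (SE, adjusted p = 4.77e-04) and by 1.02 ± 0.21 at R8 (SE, adjusted p = 0.00105). Without that array the responses at R8 and R7 still differed from that at R6, by -3.06 and -3.58. The values come from a probe set whose probes can match related transcripts. A second probe set for this gene never exceeded 1.61 on any array and gave stress differences of 0.17, -0.66 and -0.68 at the 3 stages, none of which was called.

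CYP93A3 belongs to the same subfamily and lies on the same chromosome as CYP93A1, with 15 annotated genes between them in the Glycine_max_v4.0 gene table. At R8 its non-stressed arrays read 3.74 and 3.79 and its stressed arrays 1.50, 1.54 and 1.55, so that the environments were separated by far more than the spread within either. The difference was -2.24 ± 0.13 (SE, 4.71-fold lower under stress, adjusted p = 1.62e-06). At R6 the non-stressed arrays read 0.24, 0.35 and 0.18, all in the background, and the stressed arrays 1.23, 1.26 and 0.84.

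At R7 CYP93A3 was near its highest in both environments, with 4.71 and 4.79 on the non-stressed arrays and 4.14, 4.20 and 3.78 under stress, and it was not called there (-0.71 ± 0.15). Non-stressed seeds thus rose at least 14.4-fold from R6 to R7 and remained at least 7.26-fold above R6 at R8, both bounds being taken from the background level. Stressed seeds rose by 2.93 ± 0.13 (SE) to R7 but at R8 lay only 0.42 ± 0.12 above R6, which was not called. The stress responses differed between R8 and R6 by -3.09 ± 0.18 (SE, adjusted p = 1.70e-06) and between R7 and R6 by -1.56 ± 0.20 (SE, adjusted p = 3.22e-05), and since the non-stressed R6 group was in the background both sizes depend on its removal.

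CYP93A2, also of the subfamily, stayed under the signal limit in every condition. Its mean without stress was -0.01 ± 0.08 (SD, n = 3) at R6 and 2.53 ± 0.14 (SD, n = 2) at R7, where stressed seeds averaged 1.18 ± 0.35 (SD, n = 3). Fitted without the signal limit it was lower under stress at R7 by -1.35 ± 0.21 (SE, adjusted p = 3.48e-04) and was at least 3.08-fold higher at R7 than at R6 in non-stressed seeds. At R7 all 3 CYP93A genes thus read lower on the stressed arrays than on the non-stressed ones, and of the pair above the signal limit only CYP93A1 was called. How much of each signal comes from its own transcript cannot be told from probe sets of near relatives.

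CYP98A2, whose enzyme hydroxylates p-coumaroyl esters on the way to lignin and chlorogenic acids, was the only member called lower at R6. Its arrays read 4.57, 3.99 and 4.29 without stress and 2.77, 3.24 and 3.51 with it, which do not overlap. The difference was -1.11 ± 0.20 (SE, 2.16-fold lower, adjusted p = 9.81e-04). Without the non-stressed replicate 1 it was -0.97 and without the stressed replicate 1 it was -0.91, both short of the 2-fold limit.

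All 6 probe sets of CYP98A2 were lower in stressed R6 seeds, by differences from -0.56 to -2.02. By R7 and R8 the transcript had dropped to values between 1.49 and 2.37 on every array and stress made no called difference. From R6 to R8 it fell by 2.47 ± 0.22 without stress and fell by 1.39 ± 0.20 (SE) with it, and the latter call was lost when its probe sets were averaged (-0.58). CYP81E11, of a subfamily that hydroxylates isoflavones, was in or near the background on all arrays, with no group mean above 0.496.

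**Figure D2:**
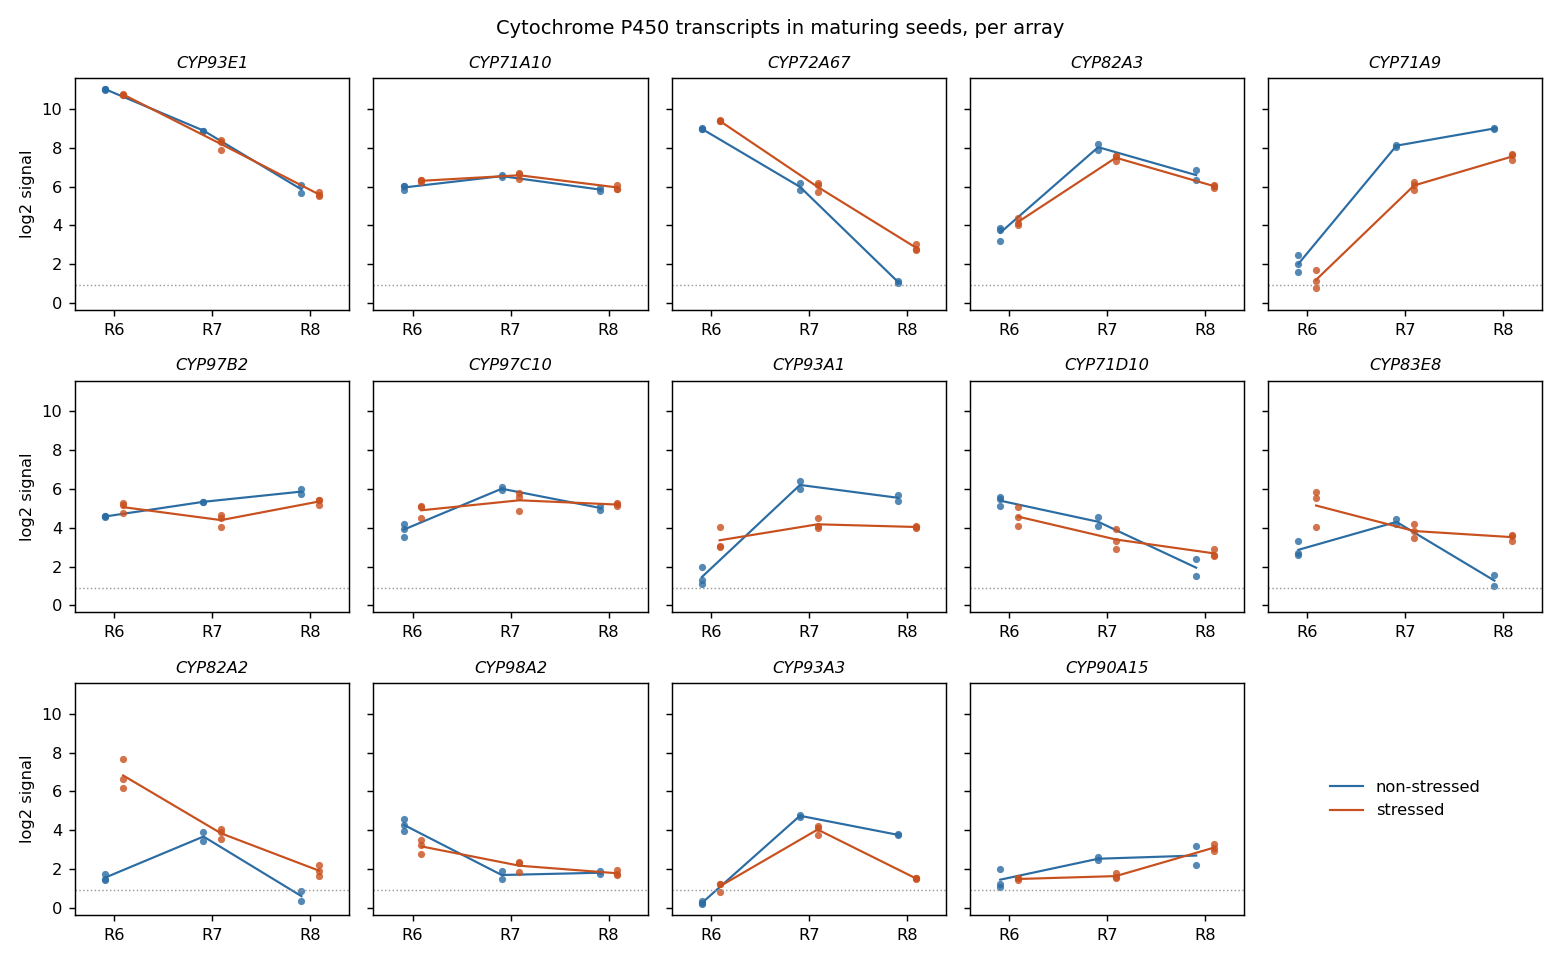
Log2 signal (vertical axis) of each of the 14 tested P450 genes at R6, R7 and R8, with 1 point per array and lines through the means of non-stressed and stressed seeds. The dotted line is the background level of 0.91. The lines of CYP93A1 and CYP97B2 are among several pairs that cross between R6 and R7. Those of CYP82A2 start far apart, and those of CYP93E1 lie close together.

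The 2 genes of triterpenoid saponin families fell steeply in maturing seeds of both environments. CYP93E1 encodes the beta-amyrin 24-hydroxylase that commits the pathway to soyasaponins. It read 10.99, 11.03 and 11.01 on the non-stressed R6 arrays, 8.89 and 8.88 at R7, and 6.06 and 5.65 at R8. Stressed seeds read 10.72, 10.74 and 10.77 at R6, 8.41, 8.28 and 7.87 at R7, and 5.56, 5.72 and 5.50 at R8.

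The stages did not overlap, and from R6 to R8 the gene fell by 5.16 ± 0.13 log2 units (SE, 35.7-fold) without stress and fell by 5.15 ± 0.11 (SE, 35.6-fold) with it. Stress differences at the 3 stages in turn were -0.27 ± 0.11, -0.70 ± 0.16 and -0.26 ± 0.13 (SE), none of which reached 2-fold. The difference between the R8 and R6 responses was 0.01 ± 0.17. Another of its probe sets, without a mark of shared probes, was called lower under stress at R7, with a difference of -1.19.

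CYP72A67, of a family that in Medicago truncatula includes oxidases of saponin skeletons, fell farther. Its R6 arrays read 8.94, 8.95 and 9.02 without stress and 9.41, 9.36 and 9.39 with it, and its R7 arrays 6.17 and 5.80 without stress and 6.18, 6.07 and 5.70 with it. At R8 the non-stressed arrays had reached 1.03 and 1.15, just above background, and the stressed arrays 3.05, 2.75 and 2.79. From R6 to R8 the gene fell by 7.88 ± 0.11 log2 units (SE, 236-fold, adjusted p = 1.21e-11) without stress and fell by 6.52 ± 0.10 (SE, 92.1-fold, adjusted p = 2.87e-11) with it.

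At R8 CYP72A67 was therefore higher in stressed seeds by 1.77 ± 0.11 (SE, 3.42-fold, adjusted p = 2.33e-06), while the R6 arrays, which also did not overlap, differed by 0.42 ± 0.10. The response at R8 exceeded that at R6 by 1.36 ± 0.15 (SE, adjusted p = 8.82e-05). Its second probe set showed 0.68 at R8, with both R8 means, 0.22 and 0.90, in the background. When the probe sets of each gene were averaged, the difference between the R8 and R6 responses was 0.74 and was not called. In the same R8 seeds, 6 of 7 measured seed storage and inhibitor genes were called higher under stress, beside 6.01% of all probe sets. At R7, 5 of these 7 were called lower, beside 11.9% of all probe sets, while CYP72A67 differed by -0.0006. Whether CYP72A67 moves with them was not tested.

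CYP82A2 gave the widest stress difference among the P450 genes. Members of the CYP82A subfamily are known in soybean from cells treated with fungal elicitors. At R6 CYP82A2 read 1.75, 1.46 and 1.49 on the non-stressed arrays and 6.63, 6.17 and 7.69 on the stressed arrays. The lowest stressed array lay far above the highest non-stressed array, and the gene was higher by 5.26 ± 0.33 (SE, 38.2-fold, adjusted p = 9.99e-07). All 3 of its probe sets gave this rise, with differences from 4.85 to 5.45.

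At R7 the environments overlapped, with 3.45 and 3.91 against 3.56, 4.05 and 3.92 (0.16 ± 0.34, SE). Between R6 and R7 the gene thus rose by 2.11 ± 0.34 log2 units in non-stressed seeds and fell by 2.99 ± 0.31 in stressed seeds, both called. The response at R7 was lower than at R6 by a difference of -5.09 ± 0.46 (SE, adjusted p = 2.30e-06).

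At R8 CYP82A2 was in the background without stress, at 0.36 and 0.85, and read 1.92, 2.20 and 1.63 with it. It was called there, at least 2.02-fold higher, with a fitted difference of 1.31 ± 0.37 (SE, adjusted p = 0.02). That call was lost without the non-stressed replicate 1 (1.07, adjusted p = 0.139) and without the stressed replicate 2 (1.17, adjusted p = 0.0656), and its other probe sets gave 0.89 and 0.68. The R8 response lay below the R6 response by a difference of -3.94 ± 0.49 (SE, adjusted p = 1.94e-04), whose size depends on the background in non-stressed R8 seeds.

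CYP82A3, of the same subfamily, had its highest values at R7 in both environments. Non-stressed seeds read 3.21, 3.89 and 3.76 at R6, 7.88 and 8.18 at R7 and 6.32 and 6.86 at R8. Stressed seeds read 4.01, 4.13 and 4.37, then 7.56, 7.58 and 7.32, then 6.03, 5.94 and 6.10. The rise from R6 to R7 was 4.41 ± 0.21 (SE, 21.2-fold) without stress and 3.32 ± 0.19 (SE, 9.97-fold) with it.

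No same-stage stress difference of CYP82A3 reached 2-fold. Stressed arrays were all above the non-stressed ones at R6 and all below them at R7 and R8, by 0.55, -0.54 and -0.57 on average. The response differed from that at R6 by -1.11 ± 0.29 at R8 (SE, adjusted p = 0.0122) and by -1.09 ± 0.28 at R7 (SE, adjusted p = 0.00438). The call at R8 was lost without the non-stressed R6 replicate 1 (-0.91) or the non-stressed R8 replicate 2 (-0.84), and that at R7 without the non-stressed R6 replicate 1 (-0.89), the non-stressed R7 replicate 2 (-0.94) or the stressed R6 replicate 3 (-0.99). Its probe sets disagreed. Of its 2 probe sets without a mark of shared probes, the one above the signal limit gave stress differences of 1.22, -2.29 and 0.06 at the 3 stages in turn, of which that at R7 was called (adjusted p = 0.00334), and the other, under the limit, gave 0.11, 0.16 and -0.16. The first of this pair rose from R6 to R7 by 4.18 without stress and differed by 0.67 with it (adjusted p = 0.227), no longer called. It showed no rise from R6 to R8, with -0.050 in non-stressed and -1.21 in stressed seeds against 2.97 and 1.86 for the probe set that stood for the gene. The stage change to R8, the rise to R7 in stressed seeds and the stress difference at R7 are therefore not settled for this gene.

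CYP83E8 was higher under stress at R6 and R8 but not at R7. It read 3.31, 2.68 and 2.62 without stress and 5.87, 5.54 and 4.04 with stress at R6, where the stressed replicate 3 lay well below the other two, and the difference was 2.28 ± 0.40 (SE, 4.86-fold, adjusted p = 0.00103). At R8 it read 1.56 and 1.00 against 3.33, 3.66 and 3.58, a difference of 2.24 ± 0.45 (SE, 4.73-fold, adjusted p = 0.00398). The groups were separate at both stages and the responses at R8 and R6 differed by -0.04 ± 0.61. The values come from the only probe set of this gene, whose probes can match related transcripts.

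At R7 the CYP83E8 arrays overlapped at their edges, with 4.44 and 4.17 in non-stressed and 3.47, 3.86 and 4.18 in stressed seeds. The fitted difference was -0.47 ± 0.42 and the R7 response was below that at R6 by -2.75 ± 0.56 (SE, adjusted p = 9.50e-04). From R6 to R7 non-stressed seeds rose by 1.44 ± 0.42 and stressed seeds fell by 1.31 ± 0.37, the latter lost without the stressed R6 replicate 1 (-0.95).

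CYP71A9 rose most steeply of the tested members and was the one called lower under stress at both R7 and R8 besides CYP93A1. At R6 it was low, at 1.57, 2.47 and 2.02 without stress and 1.68, 1.11 and 0.79 with it, and these arrays overlapped. At R7 it read 8.06 and 8.15 against 5.85, 6.08 and 6.24, a difference of -2.05 ± 0.26 (SE, 4.14-fold lower, adjusted p = 7.98e-05). At R8 it read 9.02 and 8.96 against 7.65, 7.61 and 7.38, a difference of -1.45 ± 0.28 (SE, 2.73-fold lower, adjusted p = 0.00302).

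From R6 to R8 CYP71A9 rose by 6.97 ± 0.28 log2 units (SE, 126-fold) in non-stressed and by 6.35 ± 0.25 (SE, 81.6-fold) in stressed seeds. Its response at R7 was below that at R6 by -1.22 ± 0.34 (SE, adjusted p = 0.00763), a difference that missed the 2-fold limit without the non-stressed R6 replicate 1 (-0.9997) or the stressed R6 replicate 1 (-0.98). The R8 and R6 responses differed by -0.62 ± 0.37, which was not called.

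CYP71A10, known as an enzyme that metabolises phenylurea herbicides, was the steadiest of the tested members. Its group means spanned 0.74 log2 units, from 5.85 in non-stressed R8 seeds to 6.58 in stressed R7 seeds. The R6 arrays read 5.81, 6.01 and 6.03 without stress and 6.33, 6.33 and 6.23 with it, the R7 arrays 6.59 and 6.49 against 6.40, 6.72 and 6.63, and the R8 arrays 5.78 and 5.91 against 6.07, 5.90 and 5.89. Only the R6 arrays were separate between environments, by 0.34 ± 0.10, and it was called in no comparison.

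CYP71D10 declined with maturity. Its means were 5.40 ± 0.24, 4.31 ± 0.32 and 1.95 ± 0.61 (SD, n = 3, 2 and 2) at R6, R7 and R8 without stress and 4.58 ± 0.48, 3.40 ± 0.52 and 2.69 ± 0.20 (SD, n = 3 each) with it. From R6 to R8 it fell by 3.45 ± 0.30 (SE) in non-stressed seeds and fell by 1.90 ± 0.27 (SE, 3.72-fold) in stressed seeds. No same-stage stress difference was called, but the responses at R8 (0.74 ± 0.30) and R6 (-0.82 ± 0.27) differed by 1.56 ± 0.41 (SE, adjusted p = 0.0123), a call lost without the non-stressed R8 replicate 2 (1.12, adjusted p = 0.0631).

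CYP97B2 and CYP97C10 belong to a family whose Arabidopsis members hydroxylate the rings of carotenoids. CYP97B2 rose in non-stressed seeds from 4.59 ± 0.03 (SD, n = 3) at R6 to 5.87 ± 0.17 (SD, n = 2) at R8, by 1.28 ± 0.15 (SE, adjusted p = 1.57e-05). In stressed seeds it read 5.07 ± 0.26, 4.40 ± 0.32 and 5.36 ± 0.14 (SD, n = 3 each) at the 3 stages, with no called stage change. CYP97C10 rose in non-stressed seeds from 3.91 ± 0.34 (SD, n = 3) at R6 to 6.02 ± 0.10 (SD, n = 2) at R7, by 2.11 ± 0.25 (SE, adjusted p = 3.94e-06), and stressed seeds, at 4.90 ± 0.32 and 5.42 ± 0.47 (SD, n = 3 each), were not called.

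Both carotenoid-family genes were therefore higher in stressed R6 seeds and lower in stressed R7 seeds on every array, without passing the 2-fold limit at either stage. CYP97C10 at R6, with a 1.99-fold difference (adjusted p = 0.00164), lay just under it and passed without the stressed replicate 3. The difference between the R7 and R6 responses was called for both, at -1.42 ± 0.24 (SE, adjusted p = 2.94e-04) for CYP97B2 and -1.59 ± 0.34 (SE, adjusted p = 0.00135) for CYP97C10.

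CYP90A15 belongs to a family that in Arabidopsis makes brassinosteroids. It rose from 1.46 ± 0.48 (SD, n = 3) at R6 to 2.54 ± 0.09 (SD, n = 2) at R7 and 2.70 ± 0.67 (SD, n = 2) at R8 in non-stressed seeds. In stressed seeds it read 1.49 ± 0.07, 1.64 ± 0.14 and 3.10 ± 0.20 (SD, n = 3 each), a rise of 1.61 ± 0.27 (SE, adjusted p = 2.01e-04) from R6 to R8. CYP90A15 passed the signal limit of 3 only through the stressed R8 seeds. The call of its rise into that group is therefore not independent of the filter. The non-stressed rise to R7 (1.08 ± 0.27) was not called without the R6 replicate 2 (0.98) or 3 (0.90), nor the rise to R8 (1.24 ± 0.30) without the R8 replicate 1 (0.77). At R7 all stressed arrays were below the non-stressed ones (-0.90 ± 0.27), short of 2-fold.

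**Figure D3:**
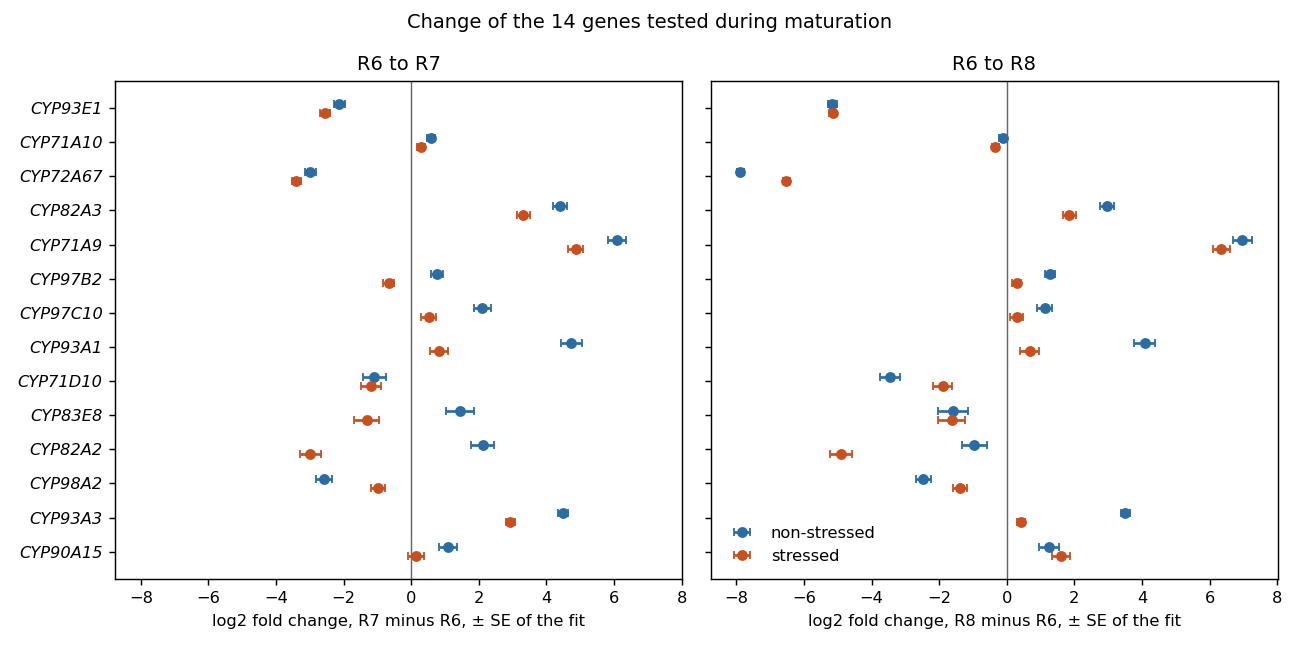
Change of log2 signal from R6 to R7 (left) and from R6 to R8 (right) for the 14 tested P450 genes in non-stressed and stressed seeds, as fitted differences with their SE. CYP72A67 and CYP93E1 lie on the left and CYP71A9 on the right in both environments, whereas CYP93A1 is at 4.74 and 4.08 without stress and at 0.82 and 0.69 with it.

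Counted over all members, more P450 genes were called between stages than between environments at a stage, and the same held for all probe sets. From R6 to R7 in non-stressed seeds 8 of the 14 rose and 4 fell, beside 26.7% and 23.2% of all probe sets, with a median of 1.26 against 0.15. In stressed seeds 3 rose and 5 fell, beside 15.6% and 20% of all probe sets, with a median of -0.26 against 0.02. From R6 to R8, 7 rose and 5 fell without stress (32.5% and 30.3% of all probe sets, medians 0.51 and 0.15) and 3 rose and 6 fell with it (27.3% and 27.1%, medians -0.03 and 0.10). The genes that rose with stress include CYP90A15, which was tested only because of its stressed R8 mean.

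CYP71A9, CYP82A3 and CYP93A3 rose to R7 in both, for CYP82A3 in stressed seeds with 1 of its probe sets and not with another. CYP82A2, CYP83E8, CYP90A15, CYP93A1 and CYP97C10 were called higher in non-stressed seeds and not in stressed ones, except that CYP93A1 was called in both without the stressed R6 replicate 3. The difference itself was tested as the R7 minus R6 difference of the stress responses, in which 1 gene (CYP98A2, 1.59 ± 0.31) was called higher and 8 were called lower, beside 17.1% and 21.8% of all probe sets, with a median of -1.16 against -0.08. For CYP90A15 that test gave -0.93 ± 0.36 and no call. For R8 minus R6, 3 were called higher (CYP71D10, CYP72A67 and CYP98A2) and 4 lower (CYP82A2, CYP82A3, CYP93A1 and CYP93A3), beside 11.4% and 8.84%, with a median of -0.43 against -0.04. Of these, CYP98A2, at 1.09 ± 0.29, was lost without the non-stressed R6 replicate 1 (0.94), the non-stressed R8 replicate 1 (adjusted p = 0.0587) or the stressed R6 replicate 1 (0.88).

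Grouped by role, the defence and xenobiotic families had 9 members and 6 tested, of which 2 were higher at R6, 1 lower at R7, and 2 higher and 1 lower at R8. The phenylpropanoid and flavonoid families had 5 members and 3 tested, with 1 higher and 1 lower at R6, 1 lower at R7 and 2 lower at R8. The saponin families had both members tested, with 1 higher at R8, and the carotenoid pair and CYP90A15 gave no same-stage stress call. Over all probe sets the shares called higher and lower were 7.54% and 7.34% at R6, 6.62% and 11.9% at R7, and 6.01% and 2.5% at R8. With 1 to 6 genes tested per role, nothing is read from these counts about a role.

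The remaining 7 genes never averaged above 3 in any condition. CYP83D1 came closest, with R6 means of 1.76 ± 0.24 without and 2.77 ± 0.15 with stress (SD, n = 3 each), and fitted without the signal limit it was higher under stress at R6 by 1.02 ± 0.15 (SE, adjusted p = 2.83e-04). It then fell into the background by R8 in both environments. CYP76O2, CYP77A3 (of a family that acts on cutin monomers in Arabidopsis), CYP94D24, CYP82C1 and the CYP81E11 and CYP93A2 already described complete the list. For CYP76O2, CYP77A3, CYP94D24 and CYP82C1 no group mean exceeded 1.49.

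For 5 genes more than 1 probe set passed the signal limit. At R6 the probe sets of each of them agreed in the direction of the stress difference. At R7 CYP82A2 gave 0.16, -0.06 and -0.17, and at R8 CYP93E1 gave -0.26, 0.27 and a value near 0, CYP82A3 gave -0.57 and 0.06 and CYP98A2 gave -0.03 and 0.07, so that the sign depended on the probe set where the difference was small.

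**Figure D4:**
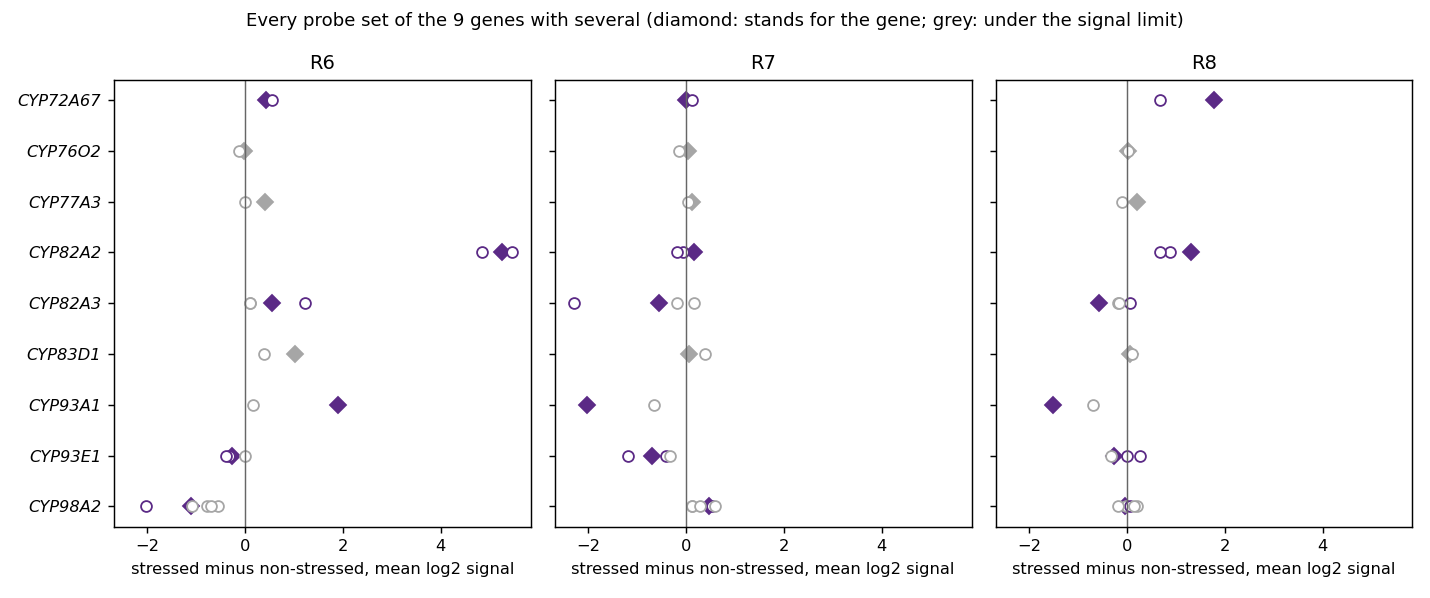
Stressed minus non-stressed mean log2 signal (horizontal axis, in log2 units), with a panel for each stage, for every probe set of the 9 P450 genes with several. Diamonds stand for the gene in the tests and grey symbols are probe sets under the signal limit of 3. The 3 CYP82A2 probe sets lie together at R6, while those of CYP82A3 spread from -2.29 to 0.16 at R7.

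The annotation lists further P450 genes under other symbols. IFS1 and IFS2, the isoflavone synthases that open the isoflavonoid branch, C4H, the cinnamate 4-hydroxylase of the phenylpropanoid core, and AOS2 were all tested and none was called in any same-stage stress comparison (the limma fit gave an adjusted p of 0.00101 for IFS2 at R6, but a log2 difference of 0.58). At an unadjusted p under 0.05, 2, 0 and 1 of these 4 differed at R6, R7 and R8 in turn. IFS2 had means from 9.06 to 10.69 over the conditions. From R6 to R8, C4H fell by 2.24 without stress and fell by 2.27 with it. Of 8 genes that carry a P450 name only as a synonym, 3 were tested and 0 called in a same-stage stress comparison. At an unadjusted p under 0.05 the counts were 1, 1 and 0, and this list also holds IFS2 and C4H. For neither list was the share of all probe sets at that limit counted.

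Among 22 other phenylpropanoid and isoflavonoid enzymes on the array, 18 were tested. At R6, 3 were higher under stress: CHR1, a chalcone reductase (2.68, adjusted p = 9.22e-04), G4DT, the prenyltransferase that acts downstream of the CYP93A1 step (2.12, adjusted p = 6.49e-04), and IFR, an isoflavone reductase by its symbol (2.02, adjusted p = 0.0454, from a non-stressed mean of 0.79 in the background). At the same stage 4 were lower, namely IFR1 (-4.17), CHI2-A, a chalcone isomerase (-1.96), 4CL1, a coumarate-CoA ligase (-1.87), and CHR5 (-1.58). Over all probe sets 7.54% were called higher and 7.34% lower at R6, so calls in both directions were not particular to these enzymes. At R7 only CHS1 was called, lower by -1.18. At R8 CHR5 was higher by 1.67, from a non-stressed mean of 0.21 in the background, and PAL2.1, a phenylalanine ammonia-lyase, lower by -1.17. The shares of all probe sets called higher and lower were 6.62% and 11.9% at R7 and 6.01% and 2.5% at R8. Nothing is read from these counts about the pathway.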

How the data were processed

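The authors hybridised RNA of seed samples to Affymetrix soybean arrays, with 3 replicates per condition in the methods, of which 16 arrays were analysed here, and deposited log2 signals, background-corrected, normalized across arrays and summarised per probe set (RMA per the labels, ArrayAnalysis.org per the methods, with the versions of both not given in the sources used here). These values, from -0.83 to 13.28, were used as deposited. Of 61170 probe sets, 37593 are for soybean and 19194 passed a mean above 3 in a condition. Genes were named from the platform annotation, and all 21 symbols were found in the gene table.

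A model with 1 mean per condition was fitted with limma 3.58.1 in R 4.3.3, on the 11 R6 and R8 arrays, or on all 16 where R7 was compared, two-sided. The fit was tested on simulated data. Members called in a same-stage stress comparison and the 5 with the highest mean are given array by array, members called elsewhere by group means, the others by counts. Members and lists were chosen with earlier results of these data known. Deviations of same-numbered arrays correlated at -0.22 to 0.36 across probe sets, which does not settle a pairing, so no block was used. Precision rests on 2 or 3 arrays per condition, since no read depth applies. Alternatives were other filters, normalizations, array sets, limma settings and probe set rules, a replicate block, and each array left out. No member sequence was at hand, and none is printed.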

Additional observations from a re-analysis of the deposited data

Results flagged for a closer look

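The stress response differed between stages for several P450 genes, by limma's test of the difference between responses (stressed minus non-stressed, on the log2 scale). Between R8 and R6 the difference was 1.56 for CYP71D10, 1.36 for CYP72A67 and 1.09 for CYP98A2, whose responses lay higher at R8, and -3.94 for CYP82A2, -3.39 for CYP93A1, -3.09 for CYP93A3 and -1.11 for CYP82A3, whose responses lay lower.

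Between R7 and R6 the response was higher at R7 by 1.59 for CYP98A2. It was lower at R7 for the other genes, by -5.09 for CYP82A2, -3.92 for CYP93A1, -2.75 for CYP83E8, -1.59 for CYP97C10, -1.56 for CYP93A3, -1.42 for CYP97B2, -1.22 for CYP71A9 and -1.09 for CYP82A3. Both sets of differences use the same R6 arrays. For CYP93A1, CYP98A2 and CYP82A3 some of these calls were lost with another probe set of the gene, as given below. All groups held 2 or 3 arrays, too few for a test of single outlying arrays.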

How the results depend on the processing

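Precision is limited by 2 or 3 arrays per condition, and folds from signals near the background of 0.91 depend on the background removal in the deposited values. Of 69 calls of single genes, 43 held under all 9 alternatives and with each of the 16 arrays left out, and 26 were lost under at least 1. Some of these checks could not change a call. Comparisons of R6 and R8 were fitted without the R7 arrays, so leaving out an R7 array left them as they were. The 2 probe set rules did not alter the values of genes with 1 probe set. With 1 array left out at a time, the count of called P450 genes ranged from 4 to 5 at R6, from 2 to 4 at R7, from 5 to 6 at R8, from 5 to 9 for R8 minus R6 and from 8 to 10 for R7 minus R6. The 4 at R7 came without the stressed R7 replicate 3, where calls over all probe sets rose from 3563 to 4417. The 9 for R8 minus R6 came without the stressed R6 replicate 3, where they rose from 3887 to 4854.

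An alternative chosen after seeing the data used a probe set without a mark of shared probes wherever a gene had one. It left 2 called at R6, CYP82A2 and CYP83E8, and 4 for R8 minus R6. The only probe set of CYP83E8 carries that mark, so its values were not changed by this alternative. At R6 CYP93A1 (0.17) and CYP98A2 (-0.56) were lost. For R8 minus R6, CYP93A1 (-0.85), CYP98A2 (0.54) and CYP82A3 (-1.16, limma adjusted p = 0.226) were lost. For R7 minus R6, CYP93A1 (-0.83) and CYP98A2 (0.69) were lost. The cause was not tested. With the same alternative the change of CYP82A3 from R6 to R8 reversed to -0.050 without stress and -1.21 with stress. A fit with the replicate number as a block gave 4 at R6, 2 at R7, 6 at R8, 7 for R8 minus R6 and 9 for R7 minus R6, the same counts as without the replicate block. Centring the array medians moved the median of all probe sets by -0.11 at R7 and by -0.13 for R7 minus R6, under which CYP82A3 (-0.96) was no longer called in the latter. Over all probe sets it gave 1651 higher and 1894 lower at R7 against 1270 and 2293.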
